A study of Mus musculus with 23 samples.

Results

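The imprinted growth gene network is taken here as 10 mouse genes, H19, Igf2, Igf2r, Meg3, Dlk1, Peg3, Mest, Plagl1, Zim1 and Grb10, which were named as a list, with earlier results of these data known. All 10 were among the 43068 genes analysed in the crush experiment, and 8 were among the 22880 genes analysed in the inducible mutants, so that H19 and Meg3 were not analysed there. The crush experiment compared sciatic nerves (SNs) of wild-type male C57BL/6J mice, 2 months old at surgery, as a 7 mm piece distal to the lesion at 3 days post crush (dpc, n = 4), as contralateral nerves (n = 4) and as uncrushed nerves, labelled as surgery controls (n = 3). The mutant experiment compared SNs at 3 months post tamoxifen (mpT) of Dicer iKO mice (P0-CreERT2 heterozygous, Dicer1 flox/flox, n = 3), of Dgcr8 iKO mice (P0-CreERT2 heterozygous, Dgcr8 flox/flox, n = 3) and of Cre-negative controls with the same flox alleles (n = 3 for each line). Controls carried both flox alleles and received tamoxifen too, on 5 consecutive days at 8 to 10 weeks of age. The promoter that drives the Cre is active in Schwann cells (SCs), so other cells of the nerve keep the targeted gene, and the mutant nerves were picked for affected morphology.

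Imprinted genes are transcribed mainly or wholly from a single parental copy. In this network the paternally expressed Igf2, Dlk1, Peg3, Mest and Plagl1 mostly favour growth or mark immature tissue, and the maternally expressed H19, Igf2r, Grb10, Meg3 and Zim1 lie beside or oppose them. Igf2 encodes insulin-like growth factor 2, Igf2r the receptor that carries this ligand to lysosomes, and Grb10 an adapter that dampens signalling of the insulin and IGF1 receptors. Most members are known for high expression in embryonic tissue and low expression after birth. The counts add up both parental copies, and parental origin was not measured.

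Total counts per library ranged from 6617716 to 12806066 in the crush experiment and from 5594859 to 10143244 in the mutant experiment. A level of 3 counts, taken as the limit of detection, equals 0.234 to 0.453 CPM (counts scaled to library size) and 0.296 to 0.536 CPM, and covers counting error only. Of 7 SC markers, 0 were at 0 in all libraries of any group. The targeted genes gave no check of the labels, since the counts are not split by exon: Dicer1 lay at 81.0 to 82.8 CPM in Dicer iKO SNs and at 88.0 to 91.0 CPM in their controls (log2 fold change -0.11, edgeR adjusted p = 0.357), and Dgcr8 at 39.3 to 53.7 CPM in Dgcr8 iKO SNs and at 34.9 to 41.9 CPM in their controls. Each library of a group came from a different mouse. Contralateral and crushed nerves came from the same mice. Which contralateral nerve came from the mouse of which crushed nerve is not given in the sources used here. The main tests between these groups treat the nerves as unpaired.

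H19, Igf2 and Mest carry microRNAs inside their transcripts, which are shown because their maturation needs the enzymes deleted in the mutants. Sequences are RefSeq mature forms (GRCm38.p6), written 5′ to 3′ with the seed, bases 2 to 8, in capitals.
miR-675-5p (H19, chr7:142577112-142577133, minus strand): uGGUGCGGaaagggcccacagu
miR-675-3p (H19, chr7:142577078-142577099, minus strand): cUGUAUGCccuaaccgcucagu
miR-483-5p (Igf2, chr7:142654968-142654989, minus strand): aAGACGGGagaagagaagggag
miR-483-3p (Igf2, chr7:142654932-142654952, minus strand): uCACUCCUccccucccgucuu
miR-335-5p (Mest, chr6:30741314-30741336, plus strand): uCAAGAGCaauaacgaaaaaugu
miR-335-3p (Mest, chr6:30741354-30741375, plus strand): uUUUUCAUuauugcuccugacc
No seed was shared between these 6 microRNAs. The RNA libraries analysed here hold long RNA, and the precursor genes Mir675, Mir483 and Mir335 gave no signal: each had a count of 0 in all 11 crush libraries. Together with the 67 precursor genes between Dlk1 and Dio3 they make 70, of which 65 had a count of 0 in all 11 libraries, and the others reached at most 2 counts.

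The promoter windows of Igf2, Igf2r, Grb10 and Peg3, which hold the starts at or near those of the main transcripts counted, are shown because these members differed in level below. Grb10 was counted from both an upstream and a downstream start. Each is given as the 250 bases before the RefSeq start, from RefSeq sequence of GRCm38.p6. They are 5′ to 3′ on the gene's strand with each CpG, the dinucleotide at which imprinted control regions are methylated, in capitals. Methylation was not measured.
Igf2 (chr7:142657497-142657746, minus strand): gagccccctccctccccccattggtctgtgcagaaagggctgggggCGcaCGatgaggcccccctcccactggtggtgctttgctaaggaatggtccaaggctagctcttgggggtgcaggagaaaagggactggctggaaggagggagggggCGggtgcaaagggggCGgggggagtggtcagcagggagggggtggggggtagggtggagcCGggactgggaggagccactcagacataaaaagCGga
Igf2r (chr17:12769707-12769956, minus strand): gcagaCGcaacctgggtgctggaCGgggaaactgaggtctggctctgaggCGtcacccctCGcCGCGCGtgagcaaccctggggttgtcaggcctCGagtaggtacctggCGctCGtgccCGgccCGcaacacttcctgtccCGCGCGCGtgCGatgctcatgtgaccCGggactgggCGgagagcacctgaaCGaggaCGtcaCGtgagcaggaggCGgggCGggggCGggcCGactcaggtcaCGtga
Grb10, upstream start (chr11:12037421-12037670, minus strand): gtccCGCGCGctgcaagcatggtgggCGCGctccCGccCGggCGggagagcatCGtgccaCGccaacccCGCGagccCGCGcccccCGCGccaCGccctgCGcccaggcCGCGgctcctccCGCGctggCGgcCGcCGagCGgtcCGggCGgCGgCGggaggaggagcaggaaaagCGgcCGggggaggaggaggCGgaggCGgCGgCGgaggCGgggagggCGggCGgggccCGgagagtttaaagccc
Grb10, downstream start (chr11:12027972-12028221, minus strand): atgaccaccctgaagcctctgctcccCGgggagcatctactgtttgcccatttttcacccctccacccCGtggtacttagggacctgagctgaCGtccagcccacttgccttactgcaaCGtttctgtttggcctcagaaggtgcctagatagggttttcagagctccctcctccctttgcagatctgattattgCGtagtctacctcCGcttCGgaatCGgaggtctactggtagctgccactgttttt
Peg3 (chr7:6730420-6730669, minus strand): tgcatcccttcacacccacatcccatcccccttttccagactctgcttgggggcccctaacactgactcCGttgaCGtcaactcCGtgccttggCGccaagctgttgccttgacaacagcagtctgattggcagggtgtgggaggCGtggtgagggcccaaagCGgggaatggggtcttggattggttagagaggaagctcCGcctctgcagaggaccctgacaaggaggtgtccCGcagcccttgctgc
The upstream Grb10 window held 40 CpGs and the Igf2r window 27, against a median of 6 over the 32851 windows of 27025 genes, of which 1.31% held 40 or more and 8.56% held 27 or more. The Igf2 window held 6 CpGs, the downstream Grb10 window 8 and the Peg3 window 8. A search of both strands for the GC box GGGCGG, which 32.7% of all windows hold, gave 5 matches before the upstream Grb10 start, 3 before Igf2r, 2 before Igf2 and 0 before Peg3. The motif GGGGCCCC, known for the Plagl1 protein and held by 0.889% of windows, was present in the Peg3 window and in no other of the 16 windows of the 9 members matched. The AP-1 motif TGANTCA, held by 6.75% of windows, was in none of the 16. A match is a description of these letters and not a binding site.

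In uncrushed nerves, the noncoding RNAs stood far above the coding members per unit of length. In uncrushed SNs, H19 (chr7:142575529-142578143, minus strand) was at 35.4 ± 11.8 FPKM (a count scaled for transcript length and depth, SD, n = 3) and Meg3 (chr12:109541001-109571726, plus strand) at 32.6 ± 10.8 FPKM, 2 neighbours whose ranges overlapped. Igf2 (chr7:142650766-142666816, minus strand) followed at 11.4 ± 1.82 FPKM, and Plagl1 and Peg3 overlapped it or each other at 9.42 ± 2.60 and 8.77 ± 0.945 FPKM. Grb10 (chr11:11930508-12038683, minus strand) was at 7.49 ± 0.439 FPKM and Igf2r (chr17:12682406-12769664, minus strand) at 4.74 ± 0.492 FPKM, with no overlap between them. Mest was lower at 2.86 ± 0.0737 FPKM, Dlk1 (chr12:109452823-109463336, plus strand) at 1.39 ± 0.387 FPKM and Zim1 last at 0.640 ± 0.131 FPKM. At 3 dpc the order changed: Igf2r followed the noncoding RNAs at 13.9 ± 1.52 FPKM (n = 4) with a range that overlapped Grb10, Igf2 had dropped below Plagl1 at 3.63 ± 0.847 FPKM, and Dlk1 last at 0.547 ± 0.228 FPKM, where its range overlapped that of Zim1.

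The first comparison asked how the network differs in the distal nerve at 3 dpc from uncrushed nerves. Of the 10 members, Igf2r rose at least 2-fold, Igf2 and Dlk1 fell at least 2-fold, and the other 7 did not pass both thresholds (a fold change of at least 2 and an adjusted p of at most 0.05). Over all 17433 genes tested, 15.3% were called higher and 21.1% lower, so these counts lie near the background. By the adjusted p alone, 2 members were higher and 4 lower, against 33.8% and 33.4% of all genes. Where a member is said below not to overlap between groups, the share of all genes that do so was not counted. The 10 members had a median of -0.15 on the log2 scale, beside -0.03 over all genes tested.

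The ligand Igf2 was at 51.0, 36.1 and 36.3 CPM in the uncrushed SNs, at 55.2, 31.5, 37.5 and 33.5 CPM in the contralateral SNs and at 16.4, 9.61, 13.5 and 12.04 CPM at 3 dpc. Every crushed nerve lay below every nerve of the other groups. The log2 fold change was -1.80 ± 0.18 (SE) against uncrushed SNs (edgeR adjusted p = 2.67e-06) and -1.74 ± 0.19 against contralateral SNs (edgeR adjusted p = 1.21e-06).

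Its receptor Igf2r moved the other way. Uncrushed SNs were at 33.2, 35.1 and 32.7 CPM, contralateral SNs at 36.6, 47.1, 38.3 and 34.0 CPM, and crushed SNs at 109.5, 134, 131 and 99.95 CPM. The lowest crushed nerve lay more than 2-fold above the highest nerve of either reference group. The log2 fold change was 1.70 ± 0.11 against uncrushed SNs (edgeR adjusted p = 5.4e-08) and 1.46 ± 0.11 against contralateral SNs (edgeR adjusted p = 2.72e-08). The noncoding Airn is transcribed on the opposite strand across the Igf2r promoter, and since the strand setting of the counting is not given in the sources used here, reads of the overlap cannot be assigned with certainty. Airn itself had a log2 fold change of -0.39 ± 0.17 against uncrushed SNs (edgeR adjusted p = 0.0553).

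Dlk1, which encodes a transmembrane protein related to Notch ligands and known from precursors of fat cells, was the lowest expressed of the called members. It was at 3.67, 2.71 and 4.58 CPM in uncrushed SNs, at 2.85, 3.73, 2.15 and 3.65 CPM in contralateral SNs and at 1.58, 0.801, 1.10 and 1.40 CPM at 3 dpc, or 9 to 18 counts per crushed library. Every crushed nerve lay below every other nerve, while contralateral and uncrushed SNs overlapped. The log2 fold change was -1.68 ± 0.31 against uncrushed SNs (edgeR adjusted p = 0.000465) and -1.48 ± 0.28 against contralateral SNs (edgeR adjusted p = 0.000341). Of 6 adipocyte markers, 5 stayed under 1 CPM in all contralateral SNs and 3 in all crushed SNs, with summed levels of 1.86 to 2.94 and 2.21 to 11.4 CPM, and 4 in all uncrushed SNs, with 1.41 to 3.76 CPM. Their part in the Dlk1 difference was not tested.

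Grb10 was at 29.3, 31.3 and 31.3 CPM in uncrushed SNs, at 25.1, 23.2, 26.1 and 30.1 CPM in contralateral SNs and at 48.3, 61.3, 54.9 and 48.0 CPM at 3 dpc. All crushed nerves lay above all others. The fitted difference, which scales only the libraries compared, stayed under 2-fold in both comparisons. The log2 fold change was 0.67 ± 0.10 against uncrushed SNs (edgeR adjusted p = 7.94e-05) and 0.89 ± 0.09 against contralateral SNs (edgeR adjusted p = 1.17e-06). Without the filter on low counts the latter was 1.055, past the 2-fold limit, and the mean CPM, scaled over all 11 libraries, was 53.1 at 3 dpc and 26.1 in contralateral SNs.

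**Figure D1:**
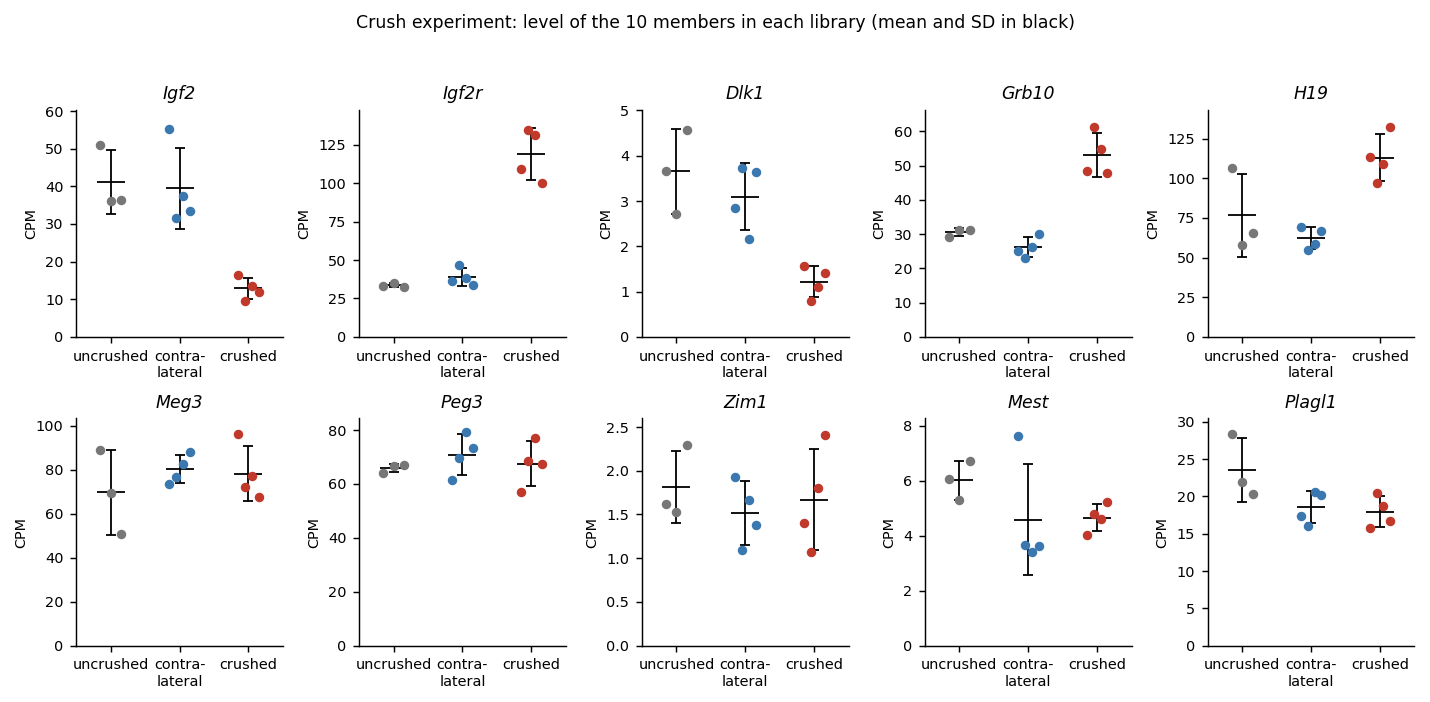
Level of each member in the 11 crush libraries, as CPM on a linear axis from 0; points are libraries, and the black bar and whiskers give the mean and SD of uncrushed (n = 3), contralateral (n = 4) and crushed (n = 4) SNs. Igf2 and Dlk1 are lower and Igf2r and Grb10 higher in every crushed nerve than in any other nerve, whereas Peg3, Meg3 and Zim1 overlap between all groups. The share of all genes that separate in this way was not counted. By the adjusted p alone, 33.8% of all genes were higher and 33.4% lower against uncrushed SNs.

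The noncoding RNAs did not follow their coding neighbours. H19 was at 106, 57.8 and 65.8 CPM in uncrushed SNs, at 69.2, 54.6, 58.8 and 66.8 CPM in contralateral SNs and at 114, 97.3, 109 and 132 CPM at 3 dpc. Crushed and contralateral SNs did not overlap, and the log2 fold change between them was 0.73 ± 0.12 (edgeR adjusted p = 6.34e-05), under the 2-fold limit. One uncrushed nerve lay among the crushed ones, and against uncrushed SNs the log2 fold change was 0.44 ± 0.19 (edgeR adjusted p = 0.0602). Without uncrushed replicate 1 it was 0.793 (edgeR adjusted p = 0.00102), and over the 14 alternatives it lay between 0.30 and 0.793 with an adjusted p of 2.05e-05 to 0.2. Meg3, the maternal RNA of the Dlk1 domain, was at 50.7 to 89.1 CPM in uncrushed, 73.7 to 88.1 CPM in contralateral and 67.4 to 96.2 CPM in crushed SNs, with log2 fold changes of 0.04 (95% interval -0.29 to 0.37) and -0.17 (95% interval -0.38 to 0.03). The latter was -0.322 (edgeR adjusted p = 0.00502) without crushed replicate 1.

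The zinc finger genes of the Peg3 domain did not pass the test in either comparison with crushed SNs. Peg3 (chr7:6703892-6730431, minus strand), which encodes a large zinc finger protein, lay between 57.1 and 79.2 CPM in all 11 nerves. Its log2 fold change was -0.08 (95% interval -0.29 to 0.12) against uncrushed SNs and -0.21 (95% interval -0.40 to -0.01) against contralateral SNs (edgeR adjusted p = 0.486 and 0.0763). The unadjusted edgeR p against contralateral SNs was 0.0534, and the normal interval is too narrow for so few libraries. The adjusted p against contralateral SNs lay between 0.0187 and 0.836 over the 16 alternatives. It was 0.0291 without contralateral replicate 1 and 0.0212 without crushed replicate 3. Its neighbour Zim1 (chr7:6671269-6696450, minus strand) was at 1.07 to 2.41 CPM in all groups, and 12 to 24 counts per library leave its log2 fold change of -0.22 against uncrushed SNs with a 95% interval of -0.91 to 0.47.

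Mest and Plagl1 passed the adjusted p against uncrushed SNs only, without reaching 2-fold. Mest (chr6:30723547-30748465, plus strand), which encodes a hydrolase-like protein of mesoderm, had a log2 fold change of -0.48 ± 0.18 (edgeR adjusted p = 0.0341, 0.055 to 0.119 without any 1 of crushed replicates 1, 2 and 3 and uncrushed replicates 1 and 3) against uncrushed SNs and of -0.12 ± 0.25 against contralateral SNs (edgeR adjusted p = 0.694). Plagl1 (chr10:13060504-13131694, plus strand), a zinc finger transcription factor that is known to regulate other members, had -0.52 ± 0.13 (edgeR adjusted p = 0.00394) and -0.19 ± 0.11 (edgeR adjusted p = 0.14). Without the filter on counts its value against uncrushed SNs was -0.298 (edgeR adjusted p = 0.116). With only the genes shared by both experiments, that against contralateral SNs was -0.251 (edgeR adjusted p = 0.046). The 2 reference groups are compared with each other below.

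Against contralateral SNs, the calls again were Igf2r higher and Igf2 and Dlk1 lower, while 14.6% of the 16667 genes tested were called higher and 13.6% lower. By the adjusted p alone, 3 members were higher and 2 lower, against 33.5% and 32.9% of all genes. Both comparisons share the 4 crushed nerves. The 10 members had a median of -0.14 on the log2 scale, beside -0.06 over all genes tested.

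Contralateral and uncrushed SNs were compared to ask whether the network differs in a nerve remote from the lesion. No member was called: 0% of 17722 genes were called higher or lower, and 0% passed the adjusted p alone in either direction. At an unadjusted p under 0.05 edgeR gave 3165 genes, 17.9% of those tested, among them the members Plagl1 and Grb10, with log2 fold changes of -0.43 ± 0.14 and -0.30 ± 0.11 (edgeR adjusted p = 0.161 and 0.194). DESeq2's Wald test called 31 genes and edgeR's exact test 163 of all genes here, none of them a member. The intervals of Igf2, -0.52 to 0.23, and of Igf2r, -0.07 to 0.34, exclude a 2-fold difference of either.

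Ratios within a library do not depend on scaling between libraries. The log2 ratio of Igf2 to H19, neighbours that share enhancers, was -3.15 ± 0.305 (SD) at 3 dpc, -0.691 ± 0.282 in contralateral SNs and -0.863 ± 0.192 in uncrushed SNs. The difference of -2.46 from contralateral SNs had p = 0.0286 in a two-sided exact permutation test, the smallest p that 4 against 4 allow. This test shuffles the nerves freely, although crushed and contralateral nerves share mice, so its p does not account for the pairing. Against uncrushed SNs the difference was -2.28 with an exact permutation p of 0.0571, which is the smallest that 4 against 3 allow and cannot pass 0.05. Adjusted over the 11 ratio tests, each of these exact permutation p-values was 0.105.

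The log2 ratio of Dlk1 to Meg3 was -5.98 ± 0.358 at 3 dpc, -4.70 ± 0.370 in contralateral SNs and -4.23 ± 0.675 in uncrushed SNs, with differences of -1.29 (exact permutation p = 0.0286) and -1.75 (exact permutation p = 0.0571). With deposited TPM, a unit that also corrects for length, in place of counts, the difference from contralateral SNs turned to 0.08, where the TPM of Dlk1 (0.05 to 0.27) lay below the pseudocount. With TPM and no pseudocount, an alternative chosen after seeing the data, it was -0.73 with an exact permutation p of 0.143. Igf2 to Igf2r, the ligand over the receptor that clears it, was -3.21 ± 0.451 at 3 dpc, -0.009 ± 0.480 in contralateral SNs and 0.272 ± 0.304 in uncrushed SNs, with differences of -3.21 (exact permutation p = 0.0286) and -3.49 (exact permutation p = 0.0571). Adjusted over the 11 ratio tests, the exact permutation p from counts was 0.105 for both ratios in both comparisons with crushed SNs. The ranges did not overlap between crushed and other nerves for any of the 3 ratios.

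**Figure D2:**
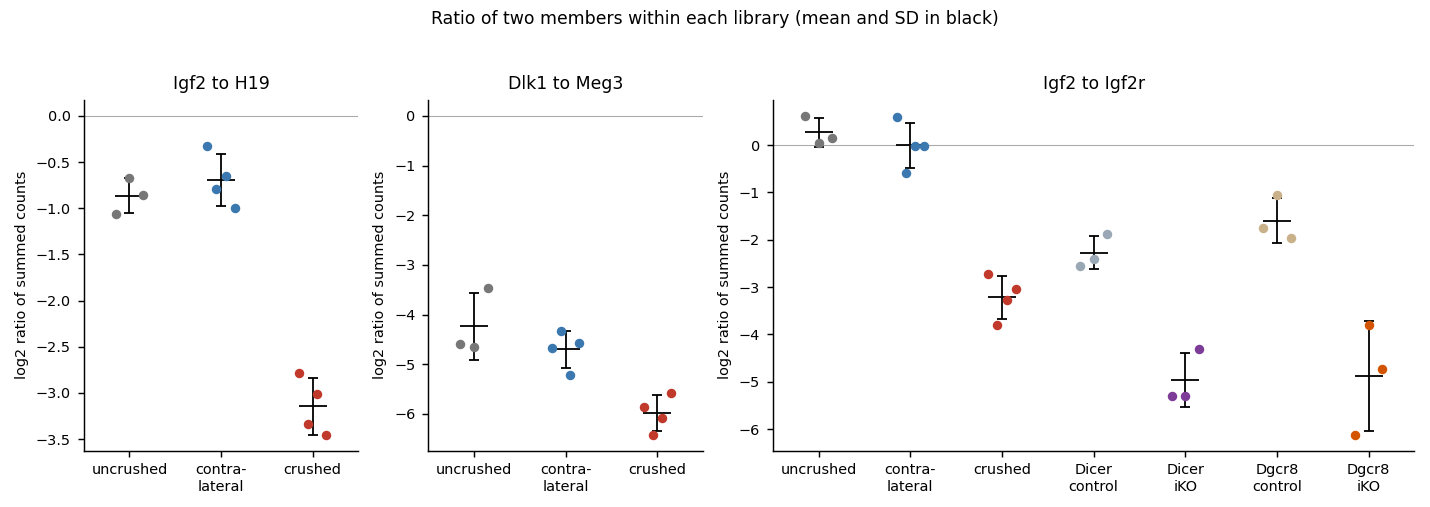
log2 ratio of summed counts of pairs of members within each library (pseudocount 0.5 counts); points are libraries, and the black bar and whiskers give mean and SD (n = 4 for crushed and contralateral, n = 3 for all other groups). Crushed SNs lie below both reference groups in all 3 ratios, and both mutant lines lie below their controls in Igf2 to Igf2r.

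Levels of cell type markers moved with these results. In crushed SNs, 7 of 8 macrophage markers were called higher in both comparisons and their summed level was 570 to 992 CPM, against 143 to 149.9 CPM in uncrushed and 93.2 to 176 CPM in contralateral SNs. The summed level of 7 SC markers was 2648 to 3816 CPM, against 10270 to 13080 CPM and 12240 to 14380 CPM, and that of 4 perineurial markers 113 to 133 CPM against 291 to 359 CPM and 344 to 453 CPM. Fibroblast markers (6) summed to 2609 to 3040 CPM against 3159 to 3732 CPM and 2950 to 3693 CPM, endothelial markers (6) to 169.8 to 207 CPM against 117 to 144 CPM and 125 to 148 CPM, and mural markers (5) to 186 to 225 CPM against 156 to 199.8 CPM and 200.5 to 223 CPM. Lymphocyte and skeletal muscle markers summed to at most 9.31 and 4.12 CPM in any crush library. In whole nerve, fewer cells of a type and less RNA per cell cannot be told apart, and the part of these shifts in the members' differences was not tested.

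The mutant experiment asked whether the network depends on microRNA processing in adult SCs. Igf2 fell in both lines, Igf2r rose and Dlk1 fell in the Dgcr8 line, and no member rose at least 2-fold in the Dicer line. In the Dicer line 6 members were tested, of which 1 was called lower and 0 higher, while 7.37% of 13045 genes were called higher and 1.64% lower. By the adjusted p alone, 1 member was higher and 1 lower, against 12.3% and 8.88% of all genes. In the Dgcr8 line 7 members were tested, of which 1 was called higher and 2 lower, while 13.4% of 13252 genes were called higher and 6.99% lower. By the adjusted p alone, 2 members were higher and 3 lower, against 23.9% and 20.6%.

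Igf2 was at 12.3, 13.9 and 16.8 CPM in Dicer controls and at 2.12, 2.96 and 5.85 CPM in Dicer iKO SNs. Dgcr8 controls were at 19.4, 32.0 and 17.7 CPM, and Dgcr8 iKO SNs at 2.0, 9.30 and 7.11 CPM. In each line every mutant nerve lay below every control. The log2 fold change was -1.97 ± 0.35 in the Dicer line (edgeR adjusted p = 0.0096) and -1.89 ± 0.40 in the Dgcr8 line (edgeR adjusted p = 0.00287). Without Dicer iKO replicate 2 the Dicer value was -1.83 with an edgeR adjusted p of 0.0543, within a range of 2.6e-06 to 0.0543 over the 13 alternatives.

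Igf2r was at 72.3, 73.8 and 62.2 CPM in Dicer controls and at 85.9, 119 and 117 CPM in Dicer iKO SNs. Dgcr8 controls were at 65.9, 67.0 and 69.0 CPM, and Dgcr8 iKO SNs at 143, 131 and 190.3 CPM. Mutants and controls did not overlap in either line. The ratio of Igf2 to Igf2r within a library differed by -2.69 and -3.29 on the log2 scale in the Dicer and Dgcr8 lines, each with an exact permutation p of 0.1, the smallest that 3 against 3 allow. Adjusted over the 11 ratio tests, each exact permutation p was 0.138. For Igf2r alone, the log2 fold change was 0.63 ± 0.14 in the Dicer line (edgeR adjusted p = 0.0213), under 2-fold, and 1.196 ± 0.15 in the Dgcr8 line (edgeR adjusted p = 9.89e-05). The adjusted p of the Dicer line was 0.0688 without Dicer control replicate 2, 0.0895 without Dicer iKO replicate 2 and 0.0907 without Dicer iKO replicate 3.

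Dlk1 was near the limit of detection in the mutants. Each of the 3 Dgcr8 iKO libraries held 1 count, against 14, 27 and 29 counts in their controls. The ratio of summed counts per total was 0.0428 (95% exact counting interval 0.00862 to 0.13), and the edgeR adjusted p was 0.000153. Dlk1 passed the count filter in this line through the controls alone, where it is high, so this p adds no separate support. With at least 10 counts required in every sample it was not tested. Dicer iKO libraries held 1, 6 and 3 counts against 8, 10 and 11 in their controls, a ratio of 0.389 (95% exact counting interval 0.169 to 0.821). Both counting intervals pool the libraries of a group and leave out the spread between mice. The Dicer line did not reach the count filter, and without the filter its edgeR adjusted p was 0.239. Per length its level was 0.420, 1.31 and 1.40 FPKM in Dicer iKO and 0.930, 1.12 and 0.900 FPKM in controls, so that the FPKM did not show it lower.

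Peg3 passed the adjusted p in the Dgcr8 line only, without reaching 2-fold. Dicer controls were at 54.1, 60.8 and 70.6 CPM and Dicer iKO SNs at 51.7, 36.9 and 39.4 CPM, with a log2 fold change of -0.53 ± 0.16 (edgeR adjusted p = 0.0542, 0.0232 to 0.188 over the 13 alternatives, with 0.0398 without Dicer control replicate 1 and 0.0232 without Dicer iKO replicate 1). Dgcr8 controls were at 73.9, 62.7 and 64.7 CPM and Dgcr8 iKO SNs at 27.9, 47.7 and 34.4 CPM, with -0.87 ± 0.18 (edgeR adjusted p = 0.00229), and -1.11, past 2-fold, without Dgcr8 iKO replicate 2. The groups did not overlap in either line.

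Grb10 was at 66.6, 46.8 and 39.6 CPM in Dicer controls and at 66.6, 78.4 and 70.3 CPM in Dicer iKO SNs, where the ranges overlapped by 1 control (log2 fold change 0.50 ± 0.19, edgeR adjusted p = 0.101, and 0.736 with 0.00949 without Dicer control replicate 1). In the Dgcr8 line the values were 36.4, 38.7 and 38.5 CPM in controls and 81.7, 74.5 and 68.9 CPM in iKO SNs, which did not overlap (log2 fold change 0.98 ± 0.12, edgeR adjusted p = 7.97e-05). This lies just under the 2-fold limit, which was passed without Dgcr8 iKO replicate 3 (1.042) and with at least 10 counts in every sample (1.003).

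Mest, Plagl1 and Zim1 did not pass the test in either line. Mest had a log2 fold change of -0.09 (95% interval -0.86 to 0.67) in the Dicer line and 0.24 (95% interval -0.22 to 0.71) in the Dgcr8 line. Plagl1 had 0.48 (95% interval 0.02 to 0.93, edgeR unadjusted p = 0.0747, edgeR adjusted p = 0.18) and -0.06 (95% interval -0.43 to 0.31). Zim1 was not tested, with 2 to 11 counts per library in the Dicer line and 1 to 12 in the Dgcr8 line.

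**Figure D3:**
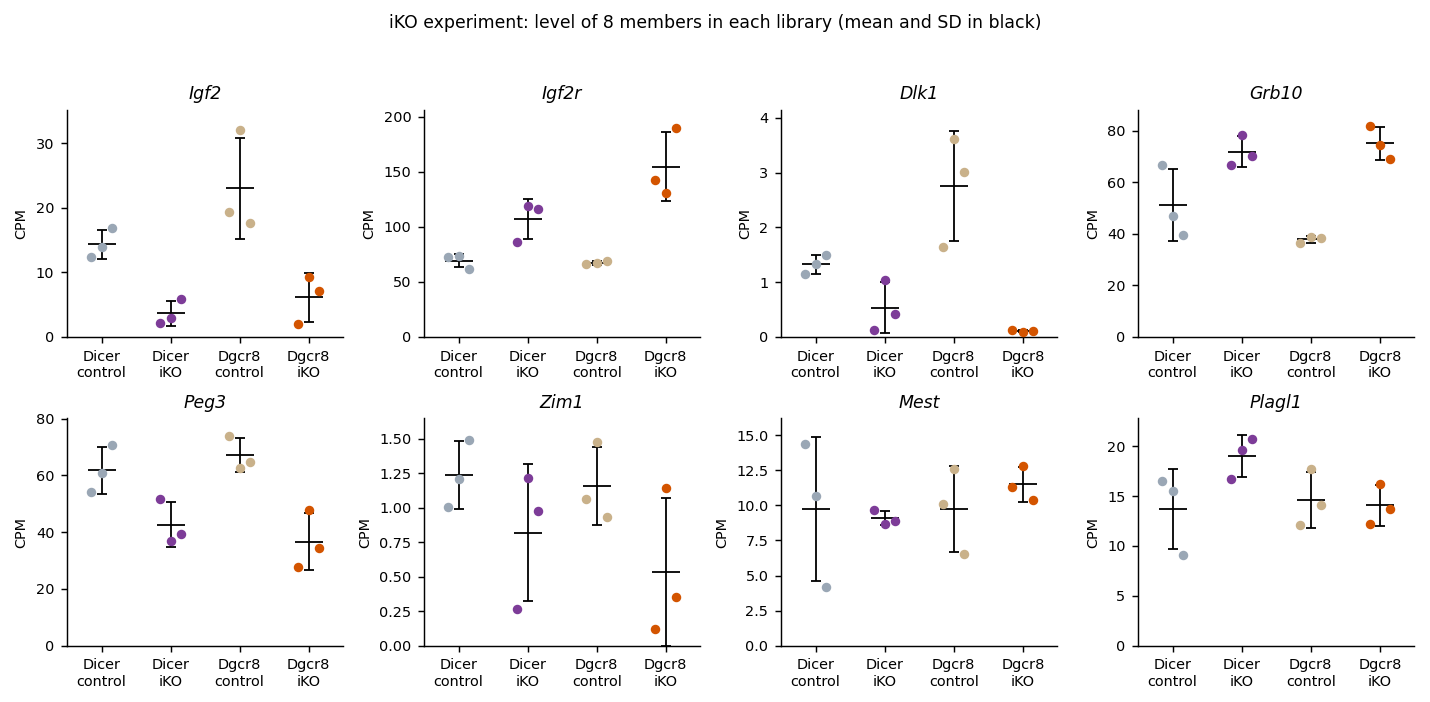
Level of the 8 members analysed in the 12 libraries of the mutant experiment, as CPM on a linear axis from 0; points are libraries (n = 3 per group), and the black bar and whiskers give the mean and SD. Igf2 is lower and Igf2r higher in every mutant nerve than in any control of its line. The share of all genes that separate in this way was not counted.

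The difference between lines was tested as an interaction. Of 7 members tested 0 were called, as against 0.00738% of 13552 genes higher and 0.00738% lower, that is 1 gene each way. At an unadjusted p under 0.05 edgeR gave 1861 genes, among them Grb10, Igf2r and Dlk1, and DESeq2's Wald test called 240 genes, none of them a member. The Dgcr8 effect minus the Dicer effect was 0.08 for Igf2 (95% interval -1.14 to 1.30), 0.57 for Igf2r (95% interval 0.15 to 0.99) and 0.49 for Grb10 (95% interval 0.05 to 0.93) on the log2 scale, with edgeR adjusted p = 0.967, 0.285 and 0.359. For Peg3 it was -0.34 (95% interval -0.86 to 0.18), and for Dlk1, with its few counts, -3.10 (95% interval -4.98 to -1.22, edgeR adjusted p = 0.205). These intervals do not show that the lines act alike.

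**Figure D4:**
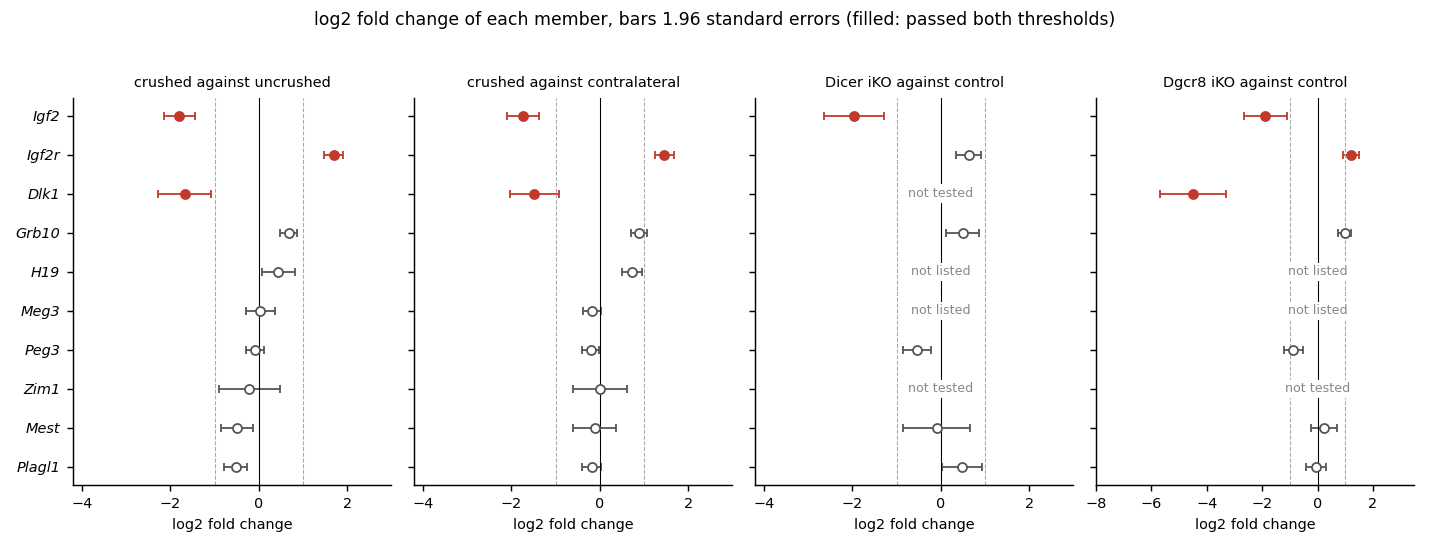
log2 fold change of each member in 4 comparisons. Bars span the normal 95% interval, which is too narrow with so few libraries. Filled red points passed both thresholds, dashed lines mark a 2-fold change, and the axis of the Dgcr8 panel is wider. Igf2 lies left of -1 in all 4 panels, and Igf2r lies right of 1 in 3 of them and at 0.63 in the Dicer line.

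Marker levels moved in the mutants too. In the Dicer line, 5 of 8 macrophage markers were called higher, and their summed level was 879 to 1153 CPM in iKO SNs and 246 to 612 CPM in controls. Fibroblast markers, 3 of 6 called higher, summed to 14330 to 15260 CPM against 2160 to 7175 CPM. In the Dgcr8 line, 6 of 8 macrophage markers were called higher and 1 lower, with sums of 603 to 1038 CPM against 253 to 299.7 CPM, and 4 of 6 fibroblast markers were called higher, with 11030 to 13600 CPM against 3847 to 5627 CPM. SC markers summed to 9804 to 12240 CPM in Dicer iKO and 13990 to 20700 CPM in their controls, and to 6315 to 10230 CPM in Dgcr8 iKO and 15160 to 19400 CPM in their controls. Adipocyte markers summed to 14.9 to 43.5 CPM in Dgcr8 iKO and 0.536 to 2.94 CPM in their controls. In Dicer iKO, where Plin1, Lep, Cidec and Retn were at 0, they summed to 17.6 to 24.2 CPM, and in their controls to 2.58 to 45.9 CPM. Fabp4 made up most of both mutant sums. It was at 14.9 to 23.1 CPM in Dgcr8 iKO (controls 0.402 to 0.941 CPM) and 17.4 to 24.2 CPM in Dicer iKO (controls 2.58 to 17.6 CPM). The lowest values of Adipoq, Plin1, Cidec and Retn in Dgcr8 iKO were 0. The ranges of perineurial markers were 489.9 to 646 CPM against 733 to 1482 CPM in the Dicer line and 429.7 to 538 CPM against 553 to 879 CPM in the Dgcr8 line, where Itgb4 made up most of the sum and Cldn1 (83.5 against 15.2 CPM) and Krt19 (11.2 against 2.92 CPM) were called higher. The ranges of endothelial markers were 161 to 175 CPM against 236 to 261 CPM and 166 to 224 CPM against 253 to 290.4 CPM. Mural markers ranged from 269 to 438 CPM over all 12 libraries, lymphocyte markers reached at most 5.98 CPM and muscle markers at most 18.5 CPM. The part of these shifts in the members' differences was not tested.

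Shares of transcripts within a member were described without a test, since RSEM divides shared reads between transcripts. Nearly all Igf2r counts fell on Igf2r-201 in every group (at least 96.4% in any library), and H19 counts fell mostly on H19-202 (at least 89.6%). In the crush libraries 83.3% to 96.6% of Igf2 counts fell on Igf2-201, which starts at the window shown above (first base chr7:142657496), and 3.37% to 16.2% on Igf2-205, which starts further upstream. In the mutant experiment they were split between Igf2-201 and Igf2-202, which starts just downstream of it, with medians of 42.1% and 54.3% in Dicer controls and 49.7% and 47.7% in Dgcr8 controls. Grb10 counts fell mostly on Grb10-201, from the CpG-rich upstream start, with medians of 91.8% in uncrushed, 67.9% in contralateral and 89.5% in crushed SNs. Grb10-201 ranged from 83.9% to 93.2% in uncrushed and from 55.4% to 84.4% in contralateral SNs, which overlapped, and from 85.3% to 94.9% in crushed SNs. The transcript from the downstream start, Grb10-203, held 0% to 9.57% in uncrushed, 0% to 22.9% in contralateral and 0% to 8.81% in crushed SNs. These ranges overlapped. In Dgcr8 controls it held 0% to 19.2%. The longest Meg3 transcript counted held 57.3% to 67.7% of Meg3 counts in all crush libraries, and Mest-211 at least 86.4% of Mest counts in any library. In the mutant experiment Dlk1-205 held 0% of the few Dlk1 counts of both mutant groups and medians of 74.5% and 61.3% in Dicer and Dgcr8 controls. The range in Dicer controls was 0% to 86.4%, which overlapped the mutants. The share rests on 1 count in each Dgcr8 iKO library and on 1 to 6 counts in Dicer iKO libraries.

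Other imprinted genes were taken from a list of 59 symbols, of which 56 were analysed in the crush experiment and 51 in the mutants. Against uncrushed SNs 44 were tested, with 5 called higher and 13 lower (15.3% and 21.1% over all genes) and a median log2 fold change of -0.27 beside -0.03 for all genes. Against contralateral SNs 42 were tested, with 4 called higher and 8 lower, against 14.6% and 13.6% of all genes (median -0.26, all genes -0.06). The 4 with the highest fold changes were the same in both comparisons. Against uncrushed SNs these were Ampd3, an AMP deaminase (log2 fold change 2.51 ± 0.19), the serotonin receptor gene Htr2a (2.5 ± 0.41), the phosphatase gene Inpp5f (1.89 ± 0.12) and Dio3, which inactivates thyroid hormone and closes the Dlk1 domain (1.66 ± 0.52). The 4 lowest were the same too: Slc22a2, an organic cation transporter beside Igf2r (-3.87 ± 0.30), the cell cycle inhibitor gene Cdkn1c (-3.08 ± 0.24), Ppp1r9a (-1.98 ± 0.10) and Osbpl5 (-1.95 ± 0.11). Levels of Slc22a2 at 3 dpc (0.20 to 0.445 CPM) and of Htr2a in uncrushed SNs (0.235 to 0.342 CPM) were near the limit of detection. The comparisons share the crushed nerves. Cdkn1c, in the domain next to Igf2, was at 1.15 ± 0.349 CPM at 3 dpc and 8.94 ± 1.55 CPM in uncrushed SNs.

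In the Dicer line 37 of these genes were tested and none was called (0 higher, 0 lower), against 7.37% and 1.64% of all genes, although DESeq2's Wald test called 2 lower and edgeR's exact test 3. In the Dgcr8 line 38 were tested, with 4 called higher and 5 lower, against 13.4% and 6.99% of all genes. The highest were Peg12 (log2 fold change 3.13 ± 0.53), Htr2a (2.98 ± 0.42), Ampd3 (1.81 ± 0.21) and Peg10 (1.49 ± 0.28), and the lowest Slc22a2 (-2.24 ± 0.28), Nap1l5 (-1.99 ± 0.43), Snrpn (-1.51 ± 0.14) and Osbpl5 (-1.16 ± 0.19). Contralateral and uncrushed SNs did not differ in any of the 42 tested by these thresholds.

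**Figure D5:**
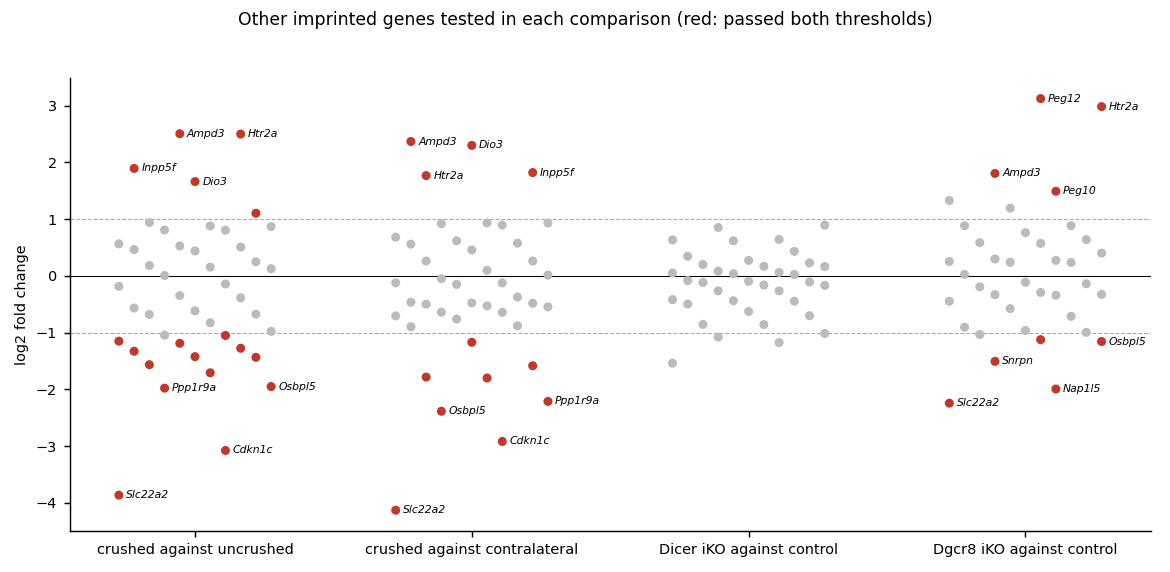
log2 fold change of each other imprinted gene tested (44, 42, 37 and 38 genes from left to right); red points passed both thresholds, dashed lines mark a 2-fold change, and the horizontal offset within a comparison has no meaning. The called genes lie on both sides of 0 in the crush comparisons and in the Dgcr8 line, and there are none in the Dicer line.

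The IGF pathway was taken as 15 genes around the ligand and its receptors. In both crush comparisons 13 were tested, with the same 6 called higher and the same 2 lower, where over all genes 15.3% and 21.1% were called against uncrushed SNs and 14.6% and 13.6% against contralateral SNs. Against uncrushed SNs the ligand gene Igf1 had a log2 fold change of 1.48 ± 0.18, and the secreted binding proteins Igfbp2, Igfbp3, Igfbp4 and Igfbp5 had 3.25 ± 0.28, 3.16 ± 0.23, 1.73 ± 0.13 and 2.31 ± 0.17. Igf2bp2, whose product binds Igf2 mRNA, had 1.60 ± 0.13, whereas the related Igf2bp1 had -1.38 ± 0.30 and the receptor substrate gene Irs1 -1.28 ± 0.12. In the mutants 12 were tested in each line, with 2 called higher in the Dicer line and 6 in the Dgcr8 line and 0 lower in either, against 7.37% and 13.4% of all genes higher and 1.64% and 6.99% lower. Those called in both lines were Igf1, with 1.59 ± 0.45 and 2.62 ± 0.21, and Igfbp3, with 2.12 ± 0.22 and 2.72 ± 0.25. Igf1 was at 119.7 ± 36.4 CPM in Dgcr8 iKO SNs and 19.4 ± 2.58 CPM in their controls, while Igf2 was lower in the same nerves.

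The genes most like a member in pattern were sought over the libraries of an experiment, by Pearson's r of log2(CPM + 1) and without a test, and r here also holds the difference between the groups. Over the 11 crush libraries and 16877 genes, H19 was most like the ribosomal protein genes Rpl36a (r = 0.936) and Rpl38 (r = 0.928) and the short-RNA gene Gm24727 (r = 0.934). Igf2 was most like Fam69b (r = 0.973), Gm37969 (r = 0.967) and B230312C02Rik (r = 0.967). Meg3 was most like E430018J23Rik (r = 0.961), Tmem250-ps (r = 0.939) and Jag2 (r = 0.924), and Peg3 most like Dxo (r = 0.856), Gm43061 (r = 0.82) and Zfp961 (r = 0.819). Over the 12 mutant-experiment libraries and 13389 genes, Igf2 was most like Rhbdd2 (r = 0.94), Zfp438 (r = 0.914) and Tmcc3 (r = 0.909), and Peg3 most like Nap1l3 (r = 0.969), Clvs1 (r = 0.965) and Nek1 (r = 0.959). No gene was on the list of a member in both experiments. Among members, Igf2 and Igf2r had r = -0.947 over the crush libraries and -0.653 over the mutant-experiment libraries.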

How the data were processed

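Long RNA of whole SNs was sequenced in 23 libraries, 11 of the crush experiment and 12 of the inducible mutants. The authors trimmed reads with Trimmomatic, aligned them with STAR to Ensembl GRCm38 and quantified transcripts with RSEM; the Ensembl release and the strand setting are not given in the sources used here. The labels name a Clontech kit for the crush libraries and a TruSeq kit for the mutants, whereas the study's methods name the TruSeq kit only. The deposited expected counts are RSEM estimates per transcript, not normalized. The deposited FPKM and TPM were scaled by the authors' RSEM run for transcript length and depth. In the deposited crush files transcripts under 200 bases hold 85.2% to 93.6% of all TPM, so levels between genes are given here as FPKM in place of the TPM that had been planned.

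Transcript values were summed per gene, and expected counts were rounded to whole numbers. Genes passed filterByExpr of edgeR 4.0.16 (R 4.3.3) at a minimum count of 10, were scaled by TMM and tested with edgeR's quasi-likelihood test in a fit of the groups compared, with Benjamini-Hochberg adjustment over all genes tested. A gene was called at a fold change of at least 2 and an adjusted p of at most 0.05, and in the interaction of genotype and line at the adjusted p alone. Standard errors are the log2 fold change over the root of F. Levels are CPM with TMM scaling over all libraries of an experiment. The experiments were not tested against each other. Ratios used a pseudocount of 0.5 counts and two-sided exact permutation tests (scipy 1.17.1). Neither these nor the main edgeR fits used the pairing of crushed and contralateral nerves by mouse. DESeq2 1.42.0, other scalings, other count filters, edgeR's exact test, a fit of all groups, the genes shared by both experiments, a replicate block and each library left out were tried as alternatives. The scripts were tested on simulated data. All 27 pairs of replicates differed beyond sampling noise (chi-square per degree of freedom 3.86 to 40.3).

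Members were all named. Of the other imprinted genes, the 4 highest and 4 lowest called in a comparison were named, of the IGF pathway those called in both crush comparisons or both lines, and of like genes the 3 with the highest r among genes with a mean of at least 1 CPM, for H19, Igf2, Meg3 and Peg3 in the crush experiment and Igf2 and Peg3 in the mutants. The members and lists were chosen with earlier results of these data known. The number of 1 uncrushed library differs between its labels (3 in the title, 4 in the description), and the title's was taken. Coordinates are of GRCm38. One further Schwann cell marker is not reported here.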

Additional observations from a re-analysis of the deposited data

Results flagged for a closer look

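Mest stood out in 1 library: contralateral replicate 1 was at 7.625 CPM, while the other 3 contralateral nerves lay between 3.426 and 3.656 CPM. The gap to the nearest nerve was 0.945 of the whole range, above Dixon's 95% limit for 4 samples. Of 26 groups of values looked at in this way this was the 1 that stood out, and chance gives about 1 in 20. Without this library the log2 fold change of Mest between crushed and contralateral SNs was 0.241 in place of -0.115.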

How the results depend on the processing

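The calls of Igf2, Igf2r and Dlk1 in the crush comparisons and in the Dgcr8 line kept their direction and their side of the thresholds under every alternative that tested them. With at least 10 counts required in every sample, Dlk1 was not tested, so that 1 member was called lower against uncrushed SNs, 1 against contralateral SNs and 1 in the Dgcr8 line, while Grb10 (1.003) made 2 members higher in the Dgcr8 line. Without the count filter Grb10 reached 1.055 against contralateral SNs, where 2 members were then higher. Leaving out libraries gave 1 to 2 members called higher in the Dgcr8 line (Grb10 1.042 without Dgcr8 iKO replicate 3) and 0 to 1 called lower in the Dicer line (0 without Dicer iKO replicate 2). Peg3 in the Dgcr8 line was -1.11 without Dgcr8 iKO replicate 2.

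With TPM in place of counts, the log2 ratio of Dlk1 to Meg3 was 0.08 between crushed and contralateral SNs, where the TPM of Dlk1 lay below the pseudocount, and -0.733 with no pseudocount, an alternative chosen after seeing the data. The differences between contralateral and uncrushed SNs were -0.026 for Igf2 to H19 and 0.009 for Igf2 to Igf2r with TPM. Leaving out 1 library between crushed and contralateral SNs gave -2.575 to -2.333 for Igf2 to H19, -1.457 to -1.14 for Dlk1 to Meg3 and -3.396 to -3.005 for Igf2 to Igf2r, but 3 against 4 cannot reach a p of 0.05.

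Over all genes, 1747 were higher than in uncrushed SNs with at least 10 counts in every sample (2673 in the report). Other imprinted genes called higher against uncrushed SNs were 10 without the filter, 2 with at least 10 counts and 4 to 8 with a library left out (8 without uncrushed replicate 1), and against contralateral SNs 11 and 2. In the Dgcr8 line they were 2 with at least 10 counts. In the Dicer line other imprinted genes called lower were 1 with RLE scaling, 1 without the filter, 2 with DESeq2, 3 with the exact test, 3 in a fit of all groups and 0 to 2 with a library left out (2 without Dicer iKO replicate 1), and those called higher were 0 to 1. Of all genes, leaving out a library gave 515 to 1093 higher and 57 to 375 lower in the Dicer line; the counts were 598 and 106 without Dicer control replicate 2, 562 and 61 without Dicer iKO replicate 2 and 515 and 57 without Dicer iKO replicate 3, and 375 were lower without Dicer iKO replicate 1. Between contralateral and uncrushed SNs, 13 genes were higher without the filter and 2 with the exact test, and lower were 128 without the filter, 31 with DESeq2, 161 with the exact test, 1 in a fit of all groups, 1 with the shared genes and 0 to 95 with a library left out (95 without uncrushed replicate 2, 30 without uncrushed replicate 1). The interaction gave 17 higher and 3 lower without the filter, 0 and 0 with at least 10 counts, 172 and 68 with DESeq2, 0 lower with RLE scaling, and 0 to 320 higher and 0 to 81 lower with a library left out (320 and 81 without Dicer control replicate 3).

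Adding the replicate block gave 548 genes higher and 92 lower in the Dicer line and 6 lower between contralateral and uncrushed SNs. The interaction then gave 0 higher and 0 lower, and no member's call changed. By the adjusted p alone, the block turned H19 against uncrushed SNs (0.0489), Peg3 against contralateral SNs (0.0187) and Igf2r in the Dicer line (0.0724). The log2 fold change under the block was -0.019 for Zim1 between crushed and contralateral SNs, -0.004 for Peg3 between contralateral and uncrushed SNs and 0.03 for Mest in the Dicer line. Same-numbered libraries correlated at -0.174 to 0.177 over all comparisons in their deviations from the group means. Between crushed and contralateral SNs the range was -0.0942 to 0.177 for same-numbered and -0.246 to 0.133 for other pairs. Such weak correlations cannot settle whether the numbers pair the samples.

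Members that were not called, with fold changes near 0, changed sign. Against uncrushed SNs Meg3 was -0.077 with at least 10 counts, -0.064 in a fit of all groups and -0.116 to 0.291 with a library left out, and without the filter Peg3 was 0.147 and Zim1 0.008. Against contralateral SNs Mest was 0.051 without the filter and -0.227 to 0.241 with a library left out, and Zim1 was -0.057 with at least 10 counts, -0.016 in a fit of all groups, -0.061 with the shared genes and -0.238 to 0.145 with a library left out. Leaving out a library between contralateral and uncrushed SNs gave -0.362 to 0.059 for Igf2, -0.033 to 0.351 for Meg3 and -0.029 to 0.088 for Peg3. The same gave -0.454 to 0.295 for Mest in the Dicer line, -0.181 to 0.096 for Plagl1 in the Dgcr8 line, and in the interaction -0.356 to 0.626 for Igf2 and -0.052 to 0.699 for Mest. The shared gene list shifted the median of all genes against uncrushed SNs by -0.107 and the fit of all groups by -0.104 on the log2 scale. The causes were not tested. Dlk1 in the mutants and Zim1 in all groups are limited by their counts.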
